A study of Mus musculus with 9 samples.

Results

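The genes described here are 9 imprinted genes at 5 loci of the mouse genome. They are Peg10, Sgce and Ppp1r9a at the Peg10-Sgce locus, Grb10, Igf2r with its antisense transcript Airn, Plagl1, and Zrsr1 with Commd1. They were chosen by symbol from the 24736 genes of the deposited table, and all 9 were found. Poly(A) RNA was sequenced from mouse embryonic stem cells differentiated into caudal epiblast-like cells (CEpiLCs), which resemble the posterior progenitors that form the trunk. All groups received bFGF at 10 ng per ml and LGK974 at 5 uM, which blocks WNT secretion, then CHIR99021, which activates WNT signalling, until day 3, when RNA was taken at 72 h. WT cells were compared with Cdx1/2/4-/- cells, mutant for the 3 Cdx genes (CdxKO), and with T/Bra-/- cells (T/BraKO), in 3 biological replicates per group. How many lines stand behind a genotype is not given in the labels, so a difference between lines cannot be told apart from a mutation. The embryonic stem cells had been grown on embryonic fibroblast feeders, which were removed by repeated plating before differentiation.

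In genomic imprinting, a differentially methylated region that carries its mark from the egg or the sperm decides which parental copy of a nearby gene is transcribed. Peg10, Sgce, Plagl1, Airn and Zrsr1 are known as paternally expressed genes in the mouse. Igf2r and Grb10 are mostly expressed from the maternal copy, with Grb10 switching to the paternal copy in neurons, and Ppp1r9a and Commd1 show a maternal bias in some tissues only. Several of these genes set growth: the Igf2r receptor clears IGF2 from the cell surface, and Grb10 is an adaptor that dampens insulin and IGF receptor signalling. The reads were counted per gene, so the values below sum both parental copies and hold no information on which copy was used.

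On GRCm38, Peg10 lies on chromosome 6 at 4747306 to 4760517, plus strand, and starts 98 bp from Sgce (4674350 to 4747207, minus strand), with which it shares a divergent promoter region. Ppp1r9a (4902917 to 5165661, plus strand) begins 142399 bp beyond Peg10. Grb10 spans 11930508 to 12038683 on the minus strand of chromosome 11. Zrsr1, on the plus strand of the same chromosome at 22972005 to 22976496, lies wholly inside Commd1 (22896136 to 22982382, minus strand). Igf2r (12682406 to 12769664, minus strand) and Airn (12741311 to 12860136, plus strand) on chromosome 17 overlap over 28354 bp of the 118826 bp of Airn. Plagl1 lies on chromosome 10 at 13060504 to 13131694, plus strand. Reads were strand-specific, and the overlapping pairs lie on opposite strands.

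Start-site windows of 250 bases before to 50 after a transcript start were taken from RefSeq on GRCm38.p6, which gave 10 windows for 7 of the 9 genes, all but Peg10 and Sgce. Those of Grb10, Igf2r, Plagl1 and Zrsr1, each called in a comparison with WT below, and of Airn, which runs antisense to Igf2r, are printed 5′ to 3′ on the strand of the gene, with each CG dinucleotide in capitals because imprinting marks are carried by methylated CG. Methylation itself was not measured.
Grb10, chr11:12037371-12037670, minus strand: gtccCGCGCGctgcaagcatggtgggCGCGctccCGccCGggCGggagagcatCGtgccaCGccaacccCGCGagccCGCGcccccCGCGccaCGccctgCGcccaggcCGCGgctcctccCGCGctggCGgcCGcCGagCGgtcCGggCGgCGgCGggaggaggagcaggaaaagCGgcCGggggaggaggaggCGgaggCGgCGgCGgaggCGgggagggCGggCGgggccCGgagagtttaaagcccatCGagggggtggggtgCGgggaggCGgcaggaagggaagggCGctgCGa
Grb10, second start, chr11:12027922-12028221, minus strand: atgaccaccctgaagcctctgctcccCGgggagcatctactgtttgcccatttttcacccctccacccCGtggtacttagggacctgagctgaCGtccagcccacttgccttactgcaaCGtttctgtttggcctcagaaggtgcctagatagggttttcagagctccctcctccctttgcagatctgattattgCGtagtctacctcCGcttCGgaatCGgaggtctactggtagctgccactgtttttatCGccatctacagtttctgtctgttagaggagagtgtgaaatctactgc
Igf2r, chr17:12769657-12769956, minus strand: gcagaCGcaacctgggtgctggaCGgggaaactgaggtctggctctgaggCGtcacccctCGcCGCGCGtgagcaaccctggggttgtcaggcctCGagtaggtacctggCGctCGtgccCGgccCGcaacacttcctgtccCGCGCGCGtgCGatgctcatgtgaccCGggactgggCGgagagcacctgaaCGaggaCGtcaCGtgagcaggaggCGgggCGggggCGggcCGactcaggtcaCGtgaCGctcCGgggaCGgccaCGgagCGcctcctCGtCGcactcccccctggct
Airn, chr17:12741061-12741360, plus strand: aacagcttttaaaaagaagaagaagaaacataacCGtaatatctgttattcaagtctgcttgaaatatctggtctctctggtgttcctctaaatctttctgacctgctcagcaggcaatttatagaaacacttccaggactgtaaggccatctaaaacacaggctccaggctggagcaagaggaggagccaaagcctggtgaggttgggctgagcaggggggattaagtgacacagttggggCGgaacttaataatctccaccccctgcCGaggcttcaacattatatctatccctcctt
Plagl1, chr10:13090582-13090881, plus strand: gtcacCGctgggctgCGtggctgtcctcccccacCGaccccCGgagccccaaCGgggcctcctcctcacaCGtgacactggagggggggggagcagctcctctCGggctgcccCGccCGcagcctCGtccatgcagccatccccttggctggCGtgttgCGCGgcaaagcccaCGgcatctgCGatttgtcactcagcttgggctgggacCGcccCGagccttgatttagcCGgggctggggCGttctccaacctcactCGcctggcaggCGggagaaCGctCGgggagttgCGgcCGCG
Zrsr1, chr11:22971755-22972054, plus strand: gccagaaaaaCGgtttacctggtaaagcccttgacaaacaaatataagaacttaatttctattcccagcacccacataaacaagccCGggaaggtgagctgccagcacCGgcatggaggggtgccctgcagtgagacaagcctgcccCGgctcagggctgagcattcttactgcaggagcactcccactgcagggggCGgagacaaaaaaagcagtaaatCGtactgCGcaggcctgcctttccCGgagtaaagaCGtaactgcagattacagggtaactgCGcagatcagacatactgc
The 2 Grb10 windows held 45 and 9 CG dinucleotides, the Igf2r window 34, the Plagl1 window 26, the Zrsr1 window 10 and the Airn window 3, against a median of 7 over 32851 windows. TTTATG, a core sequence bound by CDX factors, was searched on both strands. It stood in 11.9% of all windows and in 2 of the 10 windows of these genes, the Zrsr1 window above and 1 of Commd1. AGGTGTGA, part of the site bound by T, was searched in the same way and stood in 1.28% of all windows and in 0 of the 10. These are letter matches and no evidence of binding.

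Libraries held 25124344 to 34705361 expected counts, and 3 counts in a library, the level taken as the floor, corresponded to 0.0864 to 0.119 CPM. The ribosomal RNA gene Rn45s took 0.343% to 4.21% of the counts, the most in CdxKO replicate 1 and T/BraKO replicate 1. Among the targeted genes, T lay between 61.0 and 98.5 TPM in T/BraKO against 386 to 510 in WT, and Cdx4 between 0.06 and 0.08 in CdxKO against 2.78 to 7.40. Transcripts of the other two Cdx genes persisted in CdxKO, with Cdx2 at 24.0 to 54.3 TPM against 92.0 to 206 in WT and Cdx1 at 7.87 to 13.4 against 18.5 to 26.4. All 8 caudal epiblast markers had a mean of at least 1 TPM in each group, and their sum was 1126 to 1340 TPM in WT, 725 to 1210 in CdxKO and 872 to 1237 in T/BraKO. By DESeq2, 3 of the 8 were called in CdxKO against WT, all lower (Cdx2, Wnt3a at -1.42 on the log2 scale and Wnt8a at -0.77), and 4 in T/BraKO against WT (T, Wnt3a at -1.18 and Fgf8 at -1.56 lower, Sp5 at 0.70 higher). edgeR called T, Fgf8 and Sp5 of these. In DESeq2 the call of Cdx2 was lost without CdxKO replicates 2 or 3 or WT replicate 3 (adjusted p up to 0.141), and without CdxKO replicate 3 or WT replicate 1 that of Wnt8a was lost (DESeq2 adjusted p up to 0.155), as was that of Wnt3a in T/BraKO without T/BraKO replicates 1 or 2 or WT replicate 1 (up to 0.183). The summed level of 10 fibroblast markers was 37.1 to 63.4 TPM in WT, 45.8 to 81.6 in CdxKO and 35.5 to 57.5 in T/BraKO, with 7, 8 and 7 of the 10 at a mean of 1 TPM or more and none at 0 throughout a group. That of 10 primitive and visceral endoderm markers was 8.21 to 11.4, 8.22 to 10.9 and 8.57 to 9.14 TPM, with 1 of 10 at 1 TPM and Apoa1 in WT and Ttr in both mutants at 0. Summed trophoblast markers (8 genes) were at 14.9 to 20.6, 18.9 to 24.5 and 22.2 to 34.4 TPM, with Elf5 at 0 in both mutants. Among them Eomes, which the study uses as an early primitive streak marker, was at 3.21 to 9.75, 2.54 to 9.60 and 8.47 to 20.0 TPM. These sums are therefore not specific to trophoblast. Hand1 was called higher in CdxKO than in WT (2.44 on the log2 scale). Tfap2c (-0.50) and Ascl2 (-0.735) were not called, but all their CdxKO libraries lay below WT, and the other markers overlapped. Summed naive pluripotency markers (8 genes) were at 18.7 to 41.3, 25.8 to 44.4 and 19.8 to 39.7 TPM. Of these, Klf4 was called higher in CdxKO than in WT (0.625, DESeq2 adjusted p 0.0267), a call lost whichever library was left out. The fibroblast marker Postn was called lower in T/BraKO than in WT (-2.58, DESeq2 adjusted p 0.0491). That call held in 3 of the 9 fits that left out a library (DESeq2 adjusted p up to 0.562), and edgeR did not make it. The other fibroblast markers were not called there and lay on both sides of WT, such as Col1a1 at -0.994 and Thy1 at 0.463. The Y-linked gene Ddx3y was at 0 in every CdxKO library and at 25.5 TPM or more in all others, while Xist reached at most 0.07 TPM in any library. The part of these differences in the levels of the imprinted genes was not tested, and the missing Y-linked transcripts cannot be told apart from the Cdx mutation. In bulk RNA, fewer cells of a type and less RNA per cell cannot be told apart.

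Per transcript length, Peg10 was the most abundant of the 9 genes in every library, and Airn the least. Mean TPM in WT was 528 for Peg10, 207 for Commd1, 183 for Grb10, 58.3 for Igf2r, 50.05 for Sgce, 13.8 for Zrsr1, 11.8 for Ppp1r9a, 7.57 for Plagl1 and 0.460 for Airn. In that order the libraries of neighbouring genes overlapped between Igf2r and Sgce and between Zrsr1 and Ppp1r9a. Among all genes Peg10 ranked from 142 to 294 by TPM over the 9 libraries. In CdxKO the order differed: Sgce, at 80.7 TPM, stood above Grb10 at 55.0 and Igf2r at 30.5, although the Sgce and Grb10 libraries overlapped. In T/BraKO, Grb10 (203 TPM) and Commd1 (194) overlapped behind Peg10 at 720.

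**Figure D1:**
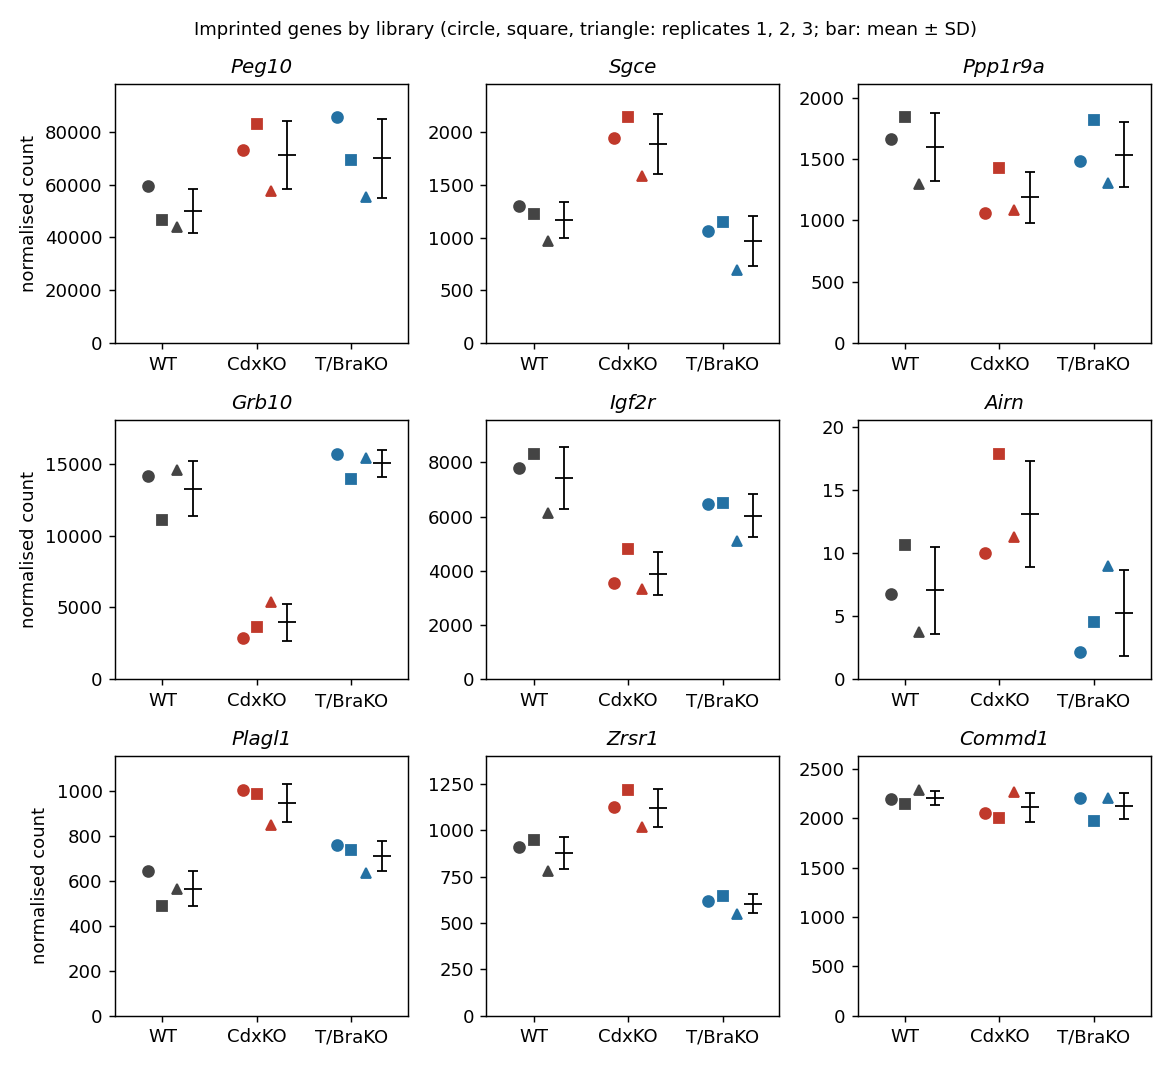
Normalised counts of the 9 imprinted genes in each of the 9 libraries, by group, on linear axes from 0. Each symbol is a library, with circles, squares and triangles for replicates 1, 2 and 3, and bars give the mean ± SD of a group. The CdxKO libraries of Grb10 and Igf2r lie below all WT and T/BraKO libraries.

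All 9 genes were chosen with results of these genotype comparisons known. Their values are therefore given as a description, as counts scaled by DESeq2 size factors, with fold changes from a DESeq2 fit to all 9 libraries. At the Peg10-Sgce locus, both paternally expressed genes were higher in CdxKO than in WT, but they parted in T/BraKO. Peg10 encodes gag- and pol-like proteins from a domesticated retrotransposon and is needed for the placenta. It had 59603, 46453 and 44037 normalised counts in WT replicates 1, 2 and 3. In CdxKO it had 73111, 82986 and 57584. The T/BraKO libraries gave 85422, 69173 and 55382. In each numbered series both mutants were above WT, yet the groups overlapped because WT replicate 1 exceeded the lowest library of each mutant. The WT mean was 50031 ± 8377 (SD, n = 3), against 71227 ± 12810 for CdxKO and 69992 ± 15040 for T/BraKO. On the log2 scale Peg10 differed from WT by 0.51 (SE 0.20) in CdxKO and by 0.48 (SE 0.20) in T/BraKO. The genes most alike to it over the 9 libraries were Prr13 (Pearson r 0.941), Arf5 (0.936) and 2900026A02Rik (0.934), by the measure described for Grb10 below.

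Sgce, which encodes epsilon-sarcoglycan, a membrane protein of the sarcoglycan family, had 1304, 1223 and 972 normalised counts in WT, 1941, 2139 and 1580 in CdxKO and 1061, 1149 and 698 in T/BraKO. Every CdxKO library lay above every WT and T/BraKO library, whereas WT and T/BraKO overlapped. The means were 1166 ± 173, 1887 ± 284 and 969 ± 239 (SD, n = 3 each). Against WT the log2 difference was 0.69 (SE 0.21) in CdxKO and -0.27 (SE 0.21) in T/BraKO, and between the mutants it was 0.96 (SE 0.21). Within the same library the ratio of Peg10 to Sgce in TPM was 11.2, 9.36 and 11.2 in WT and 9.28, 9.56 and 8.98 in CdxKO, but 19.8, 14.8 and 19.6 in T/BraKO. The divergent pair thus differed in parallel from WT in CdxKO and in opposite directions in T/BraKO.

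Ppp1r9a, further along the locus, encodes neurabin, an actin-binding protein that targets protein phosphatase 1. It had 1665, 1838 and 1297 normalised counts in WT, 1056, 1423 and 1083 in CdxKO and 1481, 1821 and 1304 in T/BraKO. CdxKO overlapped WT at a single library, replicate 2, and was below WT in each numbered series. The log2 difference from WT was -0.43 (SE 0.19) in CdxKO and -0.06 (SE 0.19) in T/BraKO. The TPM ratio of Sgce to Ppp1r9a ran from 8.52 to 10.7 in CdxKO, from 3.88 to 4.58 in WT and from 3.12 to 4.19 in T/BraKO.

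**Figure D2:**
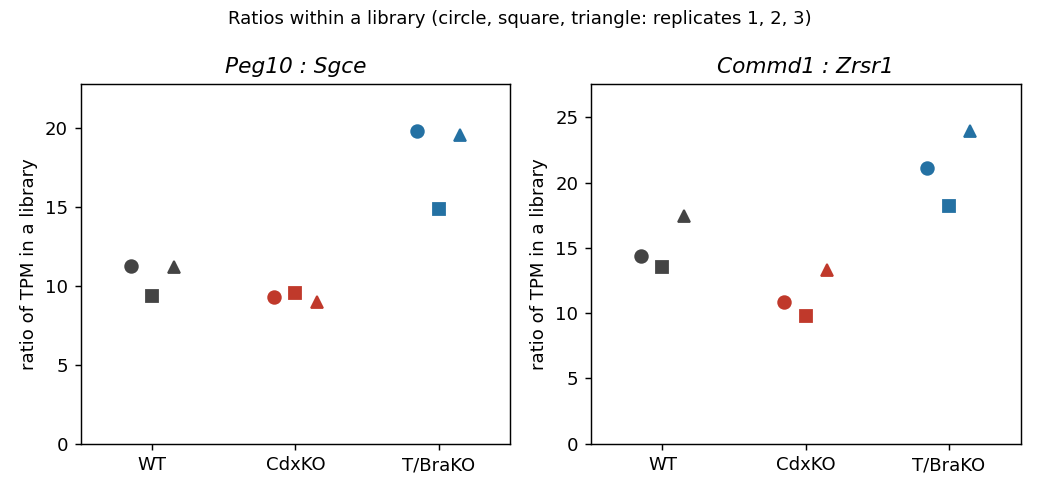
Ratio of TPM between the 2 genes of a pair within each library, for Peg10 over Sgce (left) and Commd1 over Zrsr1 (right), by group, with circles, squares and triangles for replicates 1, 2 and 3. Both ratios were higher in each T/BraKO library than in any WT or CdxKO library.

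Grb10, the insulin and IGF receptor adaptor, showed the largest genotype difference of the 9 genes in both comparisons with CdxKO. It had 14112, 11054 and 14573 normalised counts in WT and 15690, 13921 and 15428 in T/BraKO, and these groups overlapped. In CdxKO it had 2887, 3647 and 5404, so that the highest CdxKO library held fewer counts than any WT or T/BraKO library. Means were 13246 ± 1913, 15013 ± 955 and 3979 ± 1291 in WT, T/BraKO and CdxKO (SD, n = 3 each). WT was 3.33-fold above CdxKO, with a log2 difference of -1.73 (SE 0.21) for CdxKO against WT. T/BraKO differed from WT by 0.18 (SE 0.21), and CdxKO from T/BraKO by -1.92 (SE 0.21). CdxKO was below WT in every numbered series, by -2.29, -1.60 and -1.43 on the log2 scale. Without CdxKO replicate 1, the lowest library, the fitted difference was -1.55.

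The 3 genes whose log2 levels over the 9 libraries were most alike to those of Grb10, among 12316 genes whose mean normalised count reached 50, were Uty (Pearson r 0.978), Cdx4 (0.977) and Car14 (0.965). Uty is a Y-linked gene, with a mean of 0.627 normalised counts in CdxKO against 1059 in WT and 1315 in T/BraKO. Cdx4 is among the genes mutated in CdxKO. These correlations describe libraries that fall into genotype groups and carry no test.

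Igf2r encodes the cation-independent mannose 6-phosphate receptor, which takes up IGF2 for degradation and sorts lysosomal enzymes. Its normalised counts were 7780, 8313 and 6138 in WT, 3558, 4809 and 3318 in CdxKO and 6463, 6495 and 5116 in T/BraKO. All CdxKO libraries were below all libraries of the other groups, and T/BraKO overlapped WT while lying below it in each series. Mean counts were 7410 ± 1133, 3895 ± 801 and 6025 ± 787 (SD, n = 3 each). The log2 difference was -0.93 (SE 0.18) for CdxKO against WT, -0.30 (SE 0.18) for T/BraKO against WT and -0.63 (SE 0.18) for CdxKO against T/BraKO. Its most alike genes were Ulk4 (r 0.962), Usp21 (0.953) and Slc25a27 (0.938).

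Airn is a long, mostly unspliced RNA whose transcription across the Igf2r promoter silences the paternal Igf2r copy. It was near the floor in these poly(A) libraries, with 6, 11 and 4 expected counts in WT, 8, 20 and 12 in CdxKO and 2, 5 and 10 in T/BraKO. CdxKO and WT overlapped. After scaling, each CdxKO library was above each T/BraKO library, of which replicate 1 lay under the floor of 3 counts. The log2 difference of CdxKO from WT was 0.90 with an SE of 0.72, and that of T/BraKO from WT was -0.40 with an SE of 0.77, so that no difference in Airn was detectable at this depth.

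Plagl1, which encodes a zinc finger transcription factor that restrains proliferation, had 644, 487 and 565 normalised counts in WT, 1003, 988 and 849 in CdxKO and 759, 738 and 634 in T/BraKO. Each CdxKO library exceeded every library of both other groups, and T/BraKO overlapped WT at its lowest library. The group means were 565 ± 78.1, 947 ± 84.7 and 710 ± 66.9 (SD, n = 3 each). The order WT, T/BraKO, CdxKO held in all 3 numbered series. Log2 differences were 0.74 (SE 0.14) for CdxKO and 0.33 (SE 0.14) for T/BraKO against WT. The most alike genes were Chst11 (r 0.970), Nnat (0.953) and Cntfr (0.949). Nnat, itself a paternally expressed imprinted gene, had mean normalised counts of 2058 in CdxKO, 651 in WT and 885 in T/BraKO.

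Zrsr1, a retrogene that encodes a protein related to the U2 splicing auxiliary factor, was placed above WT in CdxKO and below WT in T/BraKO. Its normalised counts were 908, 946 and 778 in WT, 1129, 1218 and 1017 in CdxKO and 621, 644 and 546 in T/BraKO, with no overlap between any pair of groups. Means were 877 ± 87.8, 1121 ± 101 and 604 ± 51.1 (SD, n = 3 each). The log2 difference from WT was 0.35 (SE 0.13) in CdxKO and -0.54 (SE 0.13) in T/BraKO, and the direct difference of CdxKO from T/BraKO was 0.89 (SE 0.13). The numbered series gave nearly the same T/BraKO difference, between -0.51 and -0.56.

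Its host gene Commd1, which encodes a protein of copper handling and endosomal recycling, hardly differed. It had 2197, 2148 and 2289 normalised counts in WT, 2057, 2005 and 2273 in CdxKO and 2208, 1973 and 2203 in T/BraKO. The 3 groups overlapped, and the log2 differences from WT were -0.07 and -0.06 (SE 0.09 each), which leaves 95% intervals within 0.24 log2 units of 0. The TPM ratio of Commd1 to Zrsr1 was 14.4, 13.5 and 17.5 in WT, 10.8, 9.78 and 13.3 in CdxKO and 21.1, 18.2 and 24.0 in T/BraKO.

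**Figure D3:**
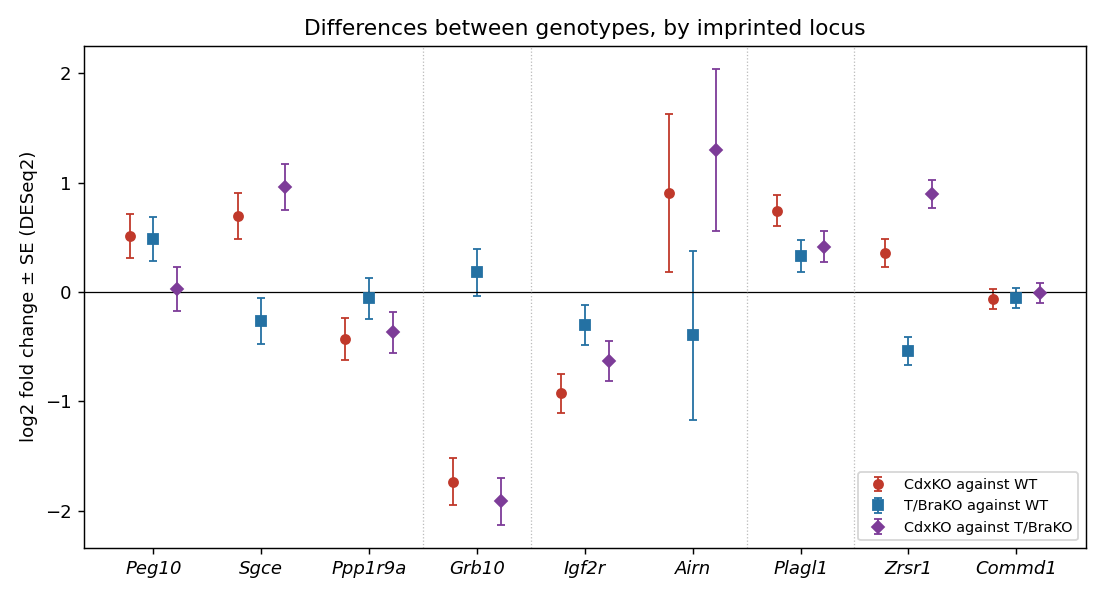
Log2 fold change of each of the 9 genes with its standard error, from DESeq2, for CdxKO against WT, T/BraKO against WT and CdxKO against T/BraKO. Grb10 lay at -1.73 and Igf2r at -0.93 in CdxKO against WT, and Zrsr1 at -0.54 in T/BraKO against WT.

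Set by parental expression, the genes chosen here fell on either side of 0 in CdxKO against WT. The 5 paternally expressed genes Peg10, Sgce, Airn, Plagl1 and Zrsr1 had positive log2 differences of 0.51, 0.69, 0.90, 0.74 and 0.35. The 4 genes with maternal expression or bias, Ppp1r9a, Grb10, Igf2r and Commd1, had negative ones of -0.43, -1.73, -0.93 and -0.07. For Ppp1r9a and Commd1 the bias is known in some tissues only, and parental copies were not told apart here. Imprinted genes among the neighbours, such as Hymai, were not placed in this split, so it depends on the choice of genes. Hymai was at -1.42, opposite in sign to Plagl1 at the same locus, but had at most 2.25 normalised counts in any library. The neighbours of Peg10 were not sorted by parental expression and lay on both sides of 0. Among them, Pon2 was at 0.29 (SE 0.24), Pon3 at 0.095 (SE 0.31) and Asb4 at 0.065 (SE 0.38). Casd1 was at -0.10 (SE 0.15) and Pdk4 at -0.44 (SE 0.51). The values for Airn and Commd1 were smaller than, or close to, their standard errors, and the pattern was noticed after the values were seen and has no test. T/BraKO against WT showed no such arrangement, with Peg10 and Plagl1 positive and Sgce and Zrsr1 negative among the paternally expressed genes. Both comparisons share the WT libraries.

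A gene was called where its DESeq2 adjusted p, over all genes, was at most 0.05. In CdxKO against WT, 3 of the 9 genes were called (Plagl1 higher, Grb10 and Igf2r lower), where 0.693% of all genes tested were. In T/BraKO against WT it was 1 gene, Zrsr1, with 1.08% of all genes. In CdxKO against T/BraKO, 4 genes were called (Sgce and Zrsr1 higher, Grb10 and Igf2r lower) with 3.48% of all genes. Since the genes were chosen with these comparisons known, nothing is read from the counts. edgeR called fewer, with Grb10 alone in CdxKO against WT, 0 genes in T/BraKO against WT (3 at an unadjusted p under 0.05) and Grb10 and Zrsr1 between the mutants. With the replicate number as a block, 7, 5 and 6 of the genes were called, against 5.31%, 9.68% and 14.6% of all genes. The block added Peg10, Sgce, Zrsr1 and Ppp1r9a in CdxKO against WT, Peg10, Sgce, Igf2r and Plagl1 in T/BraKO against WT, and Plagl1 and Ppp1r9a between the mutants. By the libraries alone, 5, 1 and 5 of the 8 genes whose mean normalised count reached 50 did not overlap in the 3 comparisons, where 9.87%, 9.92% and 15.5% of such genes did not. The median log2 difference of the 9 genes was 0.35, -0.06 and 0.03, and that of all genes tested lay within 0.012 of 0. The call of Zrsr1 in T/BraKO was lost without WT replicate 1 (log2 difference -0.51), WT replicate 2 (-0.48) or T/BraKO replicate 3 (-0.47). That of Igf2r between the mutants was lost without CdxKO replicate 1 (-0.57), CdxKO replicate 3 (-0.53), T/BraKO replicate 1 (-0.58) or T/BraKO replicate 2 (-0.57).

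The choice of genes did not use the replicate number, so differences between the 3 numbered series could be tested. By a DESeq2 likelihood ratio test of the replicate number beside genotype, 5 of the 8 genes tested were called, with 47.9% of all genes. By the fitted differences replicate 3 was the lowest series for each of the 5. Sgce was lower in replicate 3 than in replicate 2 by -0.49 (SE 0.09, adjusted p 2.30e-07), Igf2r by -0.44 (SE 0.07, adjusted p 7.75e-08) and Ppp1r9a by -0.46 (SE 0.08, adjusted p 1.73e-06), and these 3 were called whichever library was left out. Peg10 (adjusted p 0.0225) and Zrsr1 (0.0231) were less stable in the same DESeq2 test. Peg10 was lost without WT replicate 1, CdxKO replicate 3 or any T/BraKO library (adjusted p up to 0.173), and Zrsr1 without WT replicates 2 or 3, CdxKO replicates 2 or 3 or T/BraKO replicate 3 (up to 0.127). Grb10 (adjusted p 0.262), Plagl1 (0.168) and Commd1 (0.165) were not called by this DESeq2 test, although Grb10 was without CdxKO replicate 1 (adjusted p 1.16e-05). Airn was too low to be tested.

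**Figure D4:**
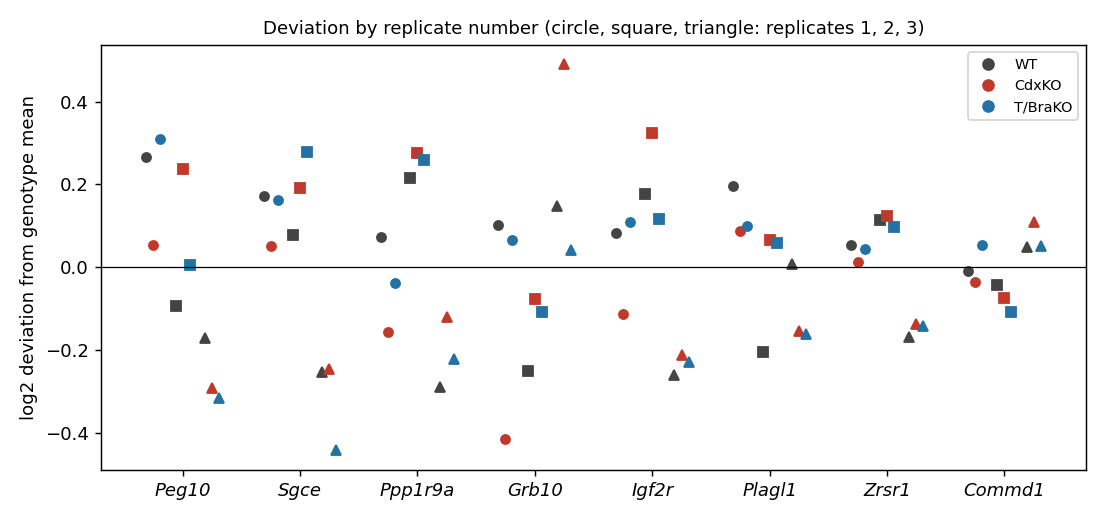
Deviation of each library's log2 normalised count from the mean of its genotype, for 8 of the imprinted genes (without Airn). Circles, squares and triangles stand for replicates 1, 2 and 3, and colours for genotypes. For Sgce and Igf2r, replicate 3 lies lowest in the 3 genotypes.

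The 59 other genes within 500 kb of the 5 loci show the same chromosome regions, and 49 of them had a count. They were taken by position alone and include the imprinted Hymai, so they are no set of genes free of imprinting. In CdxKO against WT, 0 of 45 tested neighbours were called by DESeq2 or edgeR, where DESeq2 called 0.693% of all genes tested. By each tool 2 had an unadjusted p under 0.05, and the median log2 difference of the neighbours was 0.006. In T/BraKO against WT it was 0 of 49 by either tool, where DESeq2 called 1.08% of all genes. There, 4 (DESeq2) and 2 (edgeR) had an unadjusted p under 0.05, and the median was -0.09. At shares this low, nothing is read from these counts of 0. Near Peg10, Casd1, an enzyme of sialic acid acetylation, was at -0.10 (SE 0.15) in CdxKO and -0.09 (SE 0.15) in T/BraKO against WT. Near Grb10, the DNA repair ATPase Fignl1 was at -0.07 and -0.19 (SE 0.14 each) and the actin nucleator Cobl at -0.04 (SE 0.18) and -0.45 (SE 0.19). Near Igf2r, the chaperonin subunit Tcp1 was at 0.006 and -0.01 (SE 0.07 each), and the acetyl-CoA acetyltransferase Acat2 at 0.08 and -0.03 (SE 0.18 each). These neighbours of Grb10 and Igf2r, named for the highest mean counts at their locus, were close to WT in CdxKO, where those 2 genes were low. Of them, Cobl had a mean of only 5.84 TPM in WT. Weaker neighbours did not all overlap WT, though none was called. Near Grb10, Ddc had 50.9 to 57.4 normalised counts in CdxKO against 32.9 to 34.5 in WT (log2 difference 0.66, SE 0.325). Near Igf2r, Unc93a had 13.8 to 29.2 against 1.93 to 7.88 (1.87, SE 0.78), in part under the floor. Near Plagl1, Utrn, the dystrophin relative utrophin, was at -0.03 and -0.08 (SE 0.21 each) and the ribosome biogenesis factor Ltv1 at 0.07 and 0.21 (SE 0.18 each). Near Commd1, the chaperonin subunit Cct4 was at -0.02 and -0.12 (SE 0.10 each) and the nuclear export receptor Xpo1 at 0.009 and 0.05 (SE 0.07 each). Hymai, an imprinted transcript of the Plagl1 locus, had at most 2.25 normalised counts in any library.

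Between the mutants, 2 of 41 tested neighbours were called, both higher in CdxKO, where 3.48% of all genes tested were called. Col1a2, which encodes a collagen chain, lies beyond Sgce on the side away from Peg10. It had 695, 1211 and 1584 normalised counts in CdxKO from lowest to highest, against 336, 469 and 649 in T/BraKO (log2 difference 1.26, SE 0.38, DESeq2 adjusted p 0.0267). It is also a fibroblast marker. Of the 10 in that list, 4 were called between the mutants, with Col1a1 (log2 difference 1.91), Col1a2 and Postn (3.89) higher and Thy1 (-1.20) lower in CdxKO (Postn and Thy1 also by edgeR), and their part in the result was not tested. The call of Col1a2 was lost without CdxKO replicates 1 or 2 or T/BraKO replicates 2 or 3, with DESeq2 adjusted p up to 0.267. Unc93a had 13.8, 16.1 and 29.2 normalised counts in CdxKO and at most 2.21 in T/BraKO, within the floor (DESeq2 adjusted p 0.00310, and 0.0638 without CdxKO replicate 3). With the replicate block, 1 of 35, 4 of 33 and 5 of 37 tested neighbours were called in the 3 comparisons, where 5.31%, 9.68% and 14.6% of all genes were. Col1a2 was then called higher in CdxKO than in WT, and lower in T/BraKO.

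**Figure D5:**
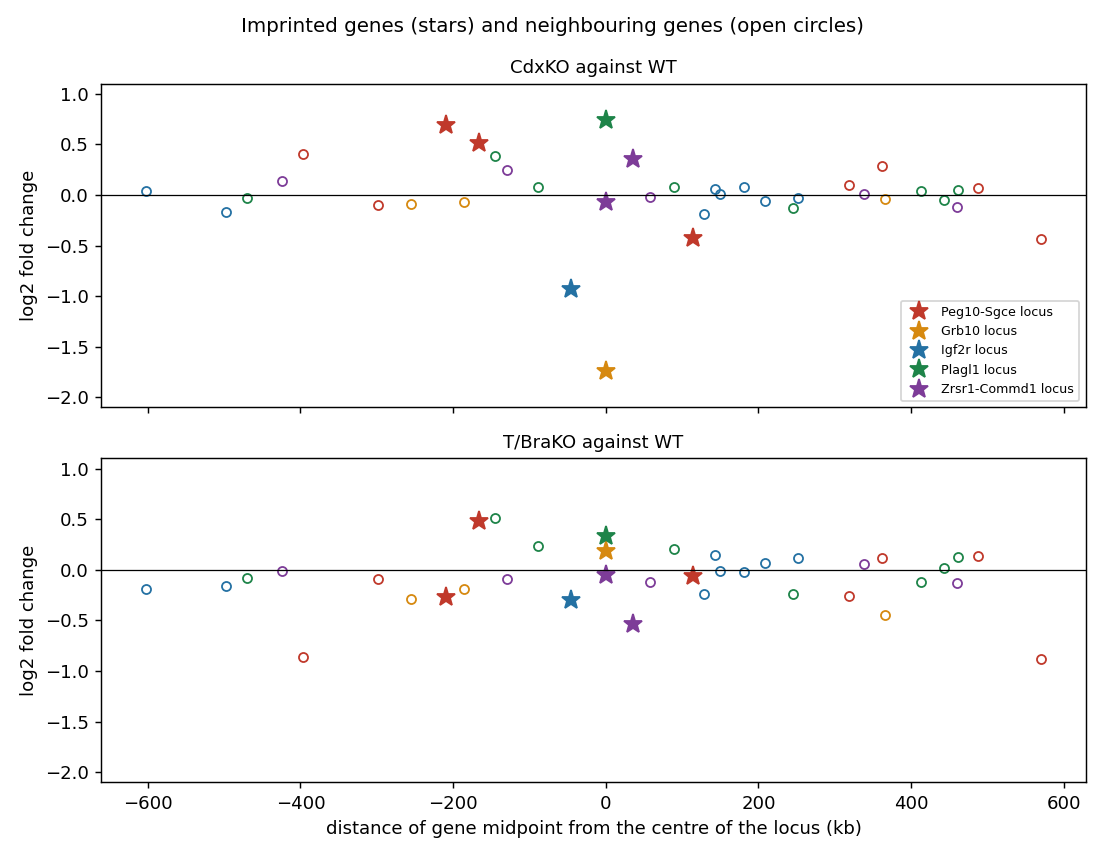
Log2 fold change of 8 imprinted genes (stars, without Airn) and of their neighbours whose mean normalised count reached 50 (open circles), by distance of the gene's midpoint from the centre of the locus in kb, in CdxKO (top) and T/BraKO (bottom) against WT, coloured by locus. Grb10 at -1.73 and Igf2r at -0.93, chosen with these values known, lie below all their plotted neighbours in CdxKO. Neighbours under that count, such as Unc93a near Igf2r at 1.87 (SE 0.78), are not shown.

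The pathways of these genes were examined through 79 genes in 9 lists. In CdxKO against WT, 0 of 75 tested were called by DESeq2 or edgeR, with 3 at an unadjusted p under 0.05 in each. DESeq2 called 0.693% of all genes tested in that comparison. In T/BraKO against WT, where it called 1.08% of all genes, 1 of 79 was called, Igfbp3. This gene encodes the main carrier of IGFs in serum and tissue. From lowest to highest it had 9190, 10591 and 11012 normalised counts in WT, 8143, 14394 and 14849 in CdxKO and 853, 1210 and 1563 in T/BraKO. The WT and CdxKO libraries overlapped, and all of them lay far above those of T/BraKO. WT was 8.49-fold above T/BraKO (log2 difference -3.09, SE 0.26, DESeq2 adjusted p 8.67e-29), and CdxKO 10.3-fold above it (3.37, SE 0.26, adjusted p 3.76e-35). Both calls held whichever library was left out.

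Of the 21 IGF and insulin genes, 3 were called between the mutants, where 3.48% of all genes tested were. Igf2bp1, the most abundant of the 21, was at -0.02 (SE 0.13). Besides Igfbp3, Gab1, a docking adaptor of receptor tyrosine kinases, was higher in CdxKO (5828 ± 178 against 3635 ± 555 normalised counts, n = 3 each, log2 difference 0.68, SE 0.12, DESeq2 adjusted p 2.24e-06). Igf2bp2, which binds Igf2 mRNA, was lower (-0.44, SE 0.13, DESeq2 adjusted p 0.0243), a call lost without CdxKO replicates 1 or 3 or T/BraKO replicates 1 or 2 (adjusted p up to 0.264). Of the 9 genes of the sarcoglycan and dystroglycan complex, Sgcb, beta-sarcoglycan, was called lower in CdxKO than in T/BraKO (-0.58, SE 0.17, DESeq2 adjusted p 0.0206), opposite in direction to Sgce at 0.96, and was lost without CdxKO replicates 2 or 3 or T/BraKO replicates 1 or 2 (adjusted p up to 0.248). Dag1, the dystroglycan core, was at -0.01 (SE 0.07) in the same comparison.

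In the other 7 lists, which hold relatives and partners of the imprinted genes, no gene was called by DESeq2 in any of the 3 comparisons. Of all genes tested, 0.693%, 1.08% and 3.48% were called in them. Grb7 and Grb14, the relatives of Grb10, were at -0.05 (SE 0.16) and 0.03 (SE 0.32) in CdxKO against WT. M6pr, the second mannose 6-phosphate receptor, was at 0.08 (SE 0.09) where Igf2r was at -0.93, and Vps35, a retromer subunit that retrieves such receptors, at -0.03 (SE 0.12). Plag1 and Plagl2, the relatives of Plagl1, were at -0.27 (SE 0.26) and -0.10 (SE 0.20). U2af1 and U2af2, the subunits of the splicing factor that Zrsr1 resembles, were at 0.04 (SE 0.13) and -0.02 (SE 0.14) in CdxKO and at 0.10 (SE 0.13) and 0.10 (SE 0.14) in T/BraKO against WT. Of the COMMD and CCC list, Ccdc93 was at -0.14 (SE 0.12) and Commd8 at -0.01 (SE 0.08) in CdxKO against WT. Ppp1cc and Ppp1ca, catalytic subunits of the phosphatase that neurabin binds, were at -0.06 (SE 0.08) and 0.07 (SE 0.13). Rtl8b and Rtl8c, which derive from retrotransposons as Peg10 does, were at 0.19 (SE 0.15) and 0.08 (SE 0.20) in CdxKO and at 0.46 (SE 0.15) and -0.08 (SE 0.20) in T/BraKO against WT. These lists held 11 sorting genes, 2 GRB7 relatives, 2 PLAG genes, 4 splicing factor genes, 8 phosphatase and neurabin genes, 11 COMMD and CCC genes and 11 retrotransposon-derived genes. Of the 49 genes of these 7 lists, 0, 3 and 2 had an unadjusted p under 0.05 in the 3 comparisons, and edgeR called 0, 0 and 0. With the replicate block, 4 of 65, 8 of 61 and 14 of 72 tested genes of all 9 lists were called in the 3 comparisons, where 5.31%, 9.68% and 14.6% of all genes were.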

How the data were processed

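The 9 cultures were profiled by poly(A) RNA sequencing with stranded, single-end reads. Per the labels and the study's methods, the authors used cutadapt 1.16, STAR 2.5.2a and RSEM 1.3.0 with RefSeq genes on mm10 and deposited, for each gene, RSEM expected counts, which are estimates that divide ambiguous reads. The expected counts of the 9 imprinted genes were whole in every library except that of Plagl1 in T/BraKO replicate 2. The authors also deposited TPM, scaled for transcript length within a library, which were used here only for levels and ratios between genes.

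Groups and replicate numbers came from the library titles. Expected counts were rounded and fitted with DESeq2 1.42.0 (R 4.3.3, Wald test, genotype as the only term, Benjamini-Hochberg adjustment over all genes, adjusted p of at most 0.05), the tool that the study's methods name. DESeq2's own filter on low counts set some adjusted p to missing. edgeR 4.0.16 (quasi-likelihood test), TMM factors, a filter of 10 counts in 3 libraries, a replicate block, fits to the 6 libraries compared and leaving out each library were alternatives. edgeR with the replicate block was added after the data were seen. The scripts were tested on simulated counts. The imprinted genes and the gene lists were chosen with earlier results of these data known.

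The replicate numbers were taken to pair the libraries, because across 12316 genes the deviations from group means correlated at 0.532 to 0.814 (mean 0.703) in the 9 same-numbered pairs from different genotypes. The 18 pairs with different numbers had a mean of -0.340. Deviations within a group sum to 0, so this negative mean largely follows from the same-numbered correlation and adds no separate evidence. Coordinates are from GENCODE M21 on GRCm38, the assembly of mm10. Of the 24736 symbols, 24204 matched GENCODE, 311 a RefSeq symbol and 151 a RefSeq synonym. Neighbours are the genes that overlap the window from 500 kb before to 500 kb after a locus. Named are all 9 imprinted genes, and from the neighbours and each list the genes called, at most 4 per list, or otherwise the 2 with the highest mean count. For Peg10, Grb10, Igf2r and Plagl1, the 3 genes most alike by Pearson r of log2(normalised count + 1) are also given. Floors and intervals of counts cover counting error only.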

Additional observations from a re-analysis of the deposited data

Results flagged for a closer look

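For 4 of the 9 imprinted genes CdxKO differed from T/BraKO in the direct DESeq2 comparison, where 3.48% of all genes tested were called. This comparison equals the difference between the mutant groups' log2 differences from the shared WT libraries. A difference between lines cannot be told apart from the mutations here. The log2 difference was 0.96 for Sgce, whose differences from WT were 0.69 in CdxKO and -0.27 in T/BraKO. For Grb10 it was -1.92, from -1.73 and 0.18, for Igf2r -0.63, from -0.93 and -0.30, and for Zrsr1 0.89, from 0.35 and -0.54. edgeR did not call Sgce or Igf2r here, and Igf2r was also lost in DESeq2 without CdxKO replicate 1 (-0.57) or 3 (-0.53) or T/BraKO replicate 1 (-0.58) or 2 (-0.57). With the replicate block 6 genes were called, where 14.6% of all genes were, with Plagl1 and Ppp1r9a added. All 3 CdxKO libraries lay on the same side of all 3 T/BraKO libraries for each of the 4 genes called without the block. The genes were chosen with these comparisons known, and the values are no independent evidence.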

How the results depend on the processing

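With the replicate block, which follows the pairing of the libraries, 7, 5 and 6 of the imprinted genes were called in CdxKO against WT, T/BraKO against WT and CdxKO against T/BraKO, with 1, 4 and 5 neighbours and 4, 8 and 14 pathway and family genes. Among the imprinted genes, neighbours and list genes, the block ended no call made without it. It also added calls of marker genes, such as Nkx1-2 and Fgf8 in CdxKO against WT and Cdx2, Nkx1-2 and Evx1 in T/BraKO against WT. The fibroblast marker Col1a1 was then called in both, at 0.94 in CdxKO and -0.96 in T/BraKO. edgeR without the block called 1, 0 and 2 imprinted genes (for the 0, 3 had an unadjusted p under 0.05 by edgeR), and 1 neighbour and 2 pathway and family genes between the mutants. edgeR with the block called 7, 4 and 6 imprinted genes, 5 neighbours in each comparison with T/BraKO, and 4, 9 and 18 pathway and family genes. Fits to the 6 libraries compared called 1 pathway or family gene in CdxKO and 2 in T/BraKO against WT. Leaving out each library gave 3 to 4, 0 to 1 and 3 to 4 called imprinted genes, 3 to 6 over the replicate series, 1 to 2 neighbours between the mutants, and 0 to 1, 1 to 2 and 2 to 4 pathway and family genes. Of the 405 log2 differences of imprinted genes under all alternatives, every value moved by less than the replicate SD, and 9 changed sign, for Ppp1r9a and Airn in T/BraKO against WT and for Peg10 and Commd1 between the mutants. With edgeR, the calls of Igf2r and Plagl1 in CdxKO against WT, of Zrsr1 in T/BraKO against WT and of Sgce and Igf2r between the mutants were lost. The cause was not tested. Depth limits Airn and Unc93a, which lay near the floor of 3 counts.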
